A study of Mus musculus with 4 samples.

Results

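The 9 members C1qa, C1qb, C1qc, C1s1, C4b, C3, Cfb, Cfp and C3ar1 are genes of the complement system, taken by symbol from the 29835 genes listed in the deposited matrices. All 9 were listed in each of the 4 libraries, and their UMIs (unique molecular identifiers, 1 per captured transcript) were summed over cells gated by other genes. A tumour-gated cell held at least 5 UMIs of Krt7, Krt8, Krt18, Krt19 and Wt1 together and none of the leukocyte gene Ptprc. A myeloid-gated cell held at least 3 UMIs of Lyz2 and Csf1r and at most 2 of the 4 keratins, and a B-gated cell at least 3 UMIs of Cd79a and Cd79b. None of the members was used in a gate.

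The study asked whether BTYNB, a small molecule inhibitor of the RNA-binding protein Igf2bp1, changes the ascites of tumour-bearing mice alone or together with PD-1 blockade. ID8 cells, a mouse ovarian surface epithelial line, with a Trp53 knockout and a fluorescent iRFP label were placed in the peritoneum of female C57BL/6 mice and left for 7 days. Mice of the control library received DMSO and IgG control antibody, those of the BTYNB library BTYNB (closed conformation) and the control antibody, those of the anti-PD-1 library DMSO and the PD1 blocking antibody RMP1-14, and those of the combination library BTYNB and the blocking antibody. The labels give 50 mg/kg BTYNB and 100 ng of antibody per dose, repeated until about 3 mL of ascites, whereas the published methods name different amounts. The line, the Trp53-/- genotype and the host strain are shared by all 4 groups, the tumour cells are 1 transplanted knockout line, and the mice of each treatment were pooled into 1 library. With 1 library per treatment there is no replicate error, so no p-value is given. The 95% intervals below are exact Poisson or binomial intervals and cover counting error only.

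Complement is a cascade of plasma proteins. C1q, built from the chains of C1qa, C1qb and C1qc, binds antibody on a surface and switches on the protease C1s, which cleaves C4 and C2. The resulting enzyme cleaves C3, whose fragments coat the surface or act on receptors such as C3ar1. Factor B (Cfb) and properdin (Cfp) form and stabilize the enzyme of the alternative pathway. The liver makes most plasma complement, whereas C1q is known as a product of macrophages and properdin as one of myeloid cells.

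After removal of cells with under 200 genes or over 33% mitochondrial UMIs, the control, BTYNB, anti-PD-1 and combination libraries kept 7834, 18283, 12019 and 7042 cells. The tumour gate held 7114, 3606, 10923 and 4369 of them (median 9783, 15221, 7160 and 11503 UMIs per cell), and the myeloid gate 292, 3134, 384 and 1258 (median 5344, 4391.5, 4202.5 and 7067 UMIs). B-gated cells in neither other gate numbered 9, 3215, 3 and 132, so the B gate could be read in the BTYNB and combination libraries alone. The BTYNB library holds cells down to 869 UMIs, against 4438, 3533 and 5115 in the others. Pairs of libraries shared between 0 and 4 cell numbers. The 6 tumour markers Msln, Upk1b, Epcam, Cdh1, Pax8 and Lgals7 summed to between 1169 and 1275 CPM (counts per 1e6 UMIs) in the tumour gate and to between 31.9 and 136 CPM in the myeloid gate. Epcam, an epithelial adhesion gene, was at most 0.269 CPM in tumour-gated cells on either side of the Cd24a division used below. The 6 macrophage markers Adgre1, Fcgr1, Mertk, Mrc1, Cd68 and Ms4a7 summed to between 1282 and 1373 CPM in the myeloid gate and to between 14.3 and 28.1 CPM in the tumour gate.

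The members divided by gate. C1s1 and C3 lay mainly in the tumour gate, with libraries in the order control, BTYNB, anti-PD-1 and combination. Of all UMIs in kept cells, tumour-gated cells held 95.5, 81.1, 94.1 and 87.1% of those of C1s1 and 93.2, 77.9, 92.6 and 83.1% of those of C3. The iRFP label was not used, so host cells with keratin or Wt1 UMIs were not told apart from the transplanted line. The fibroblast genes Dcn, Pdgfra and Lum summed to 294, 318, 216 and 258 CPM in this gate. Myeloid-gated cells held 75.7 to 95% of the UMIs of C1qa, 71.6 to 94.3% of C1qb, 74.9 to 94.7% of C1qc, 71.7 to 94.0% of C3ar1 and 68.8 to 80.0% of Cfp. C4b, which encodes the C4 chain, was divided between both: the tumour gate held 71.0, 53.8, 59.6 and 32.4% of its UMIs and the myeloid gate 24.3, 32.8, 32.9 and 58.5%. On the CPM scale, however, C4b was higher in myeloid-gated than in tumour-gated cells in all 4 libraries. Cfb was close to undetected, with 1, 2, 1 and 0 UMIs in the tumour gate and 1, 5, 1 and 6 in the myeloid gate. The 0 in the combination tumour gate allows up to 0.0537 CPM (3 counts of the total), and Cfb passed no filter on low counts. The levels here are of 3' tags and are compared for 1 gene across cells, not between genes.

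**Figure D1:**
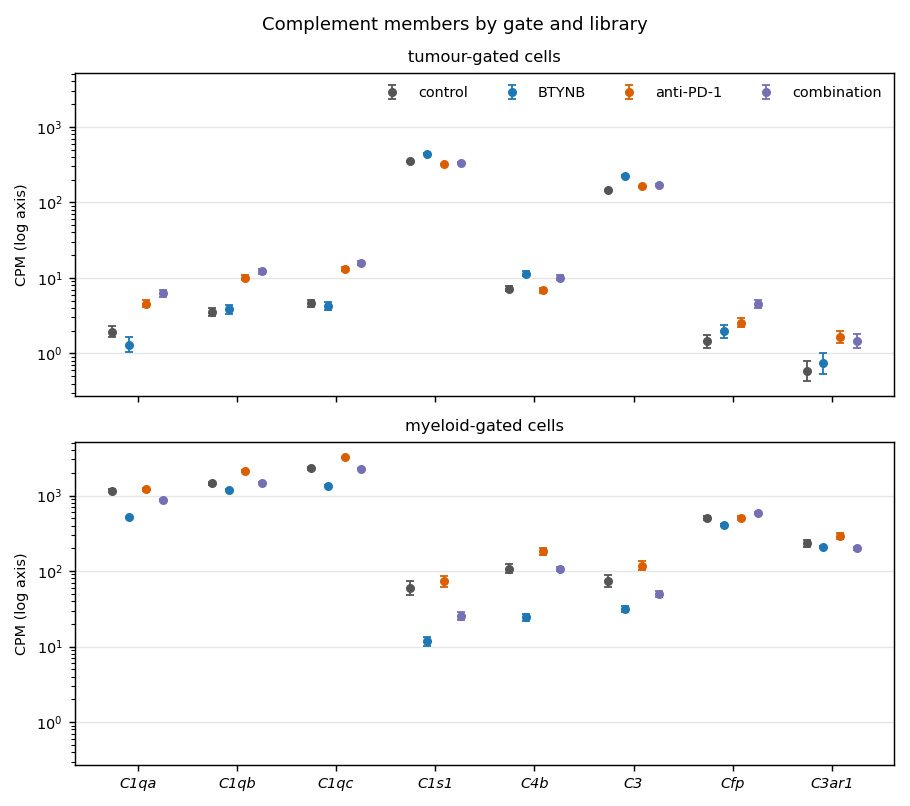
CPM of 8 members (Cfb is left out) in tumour-gated cells (upper panel) and myeloid-gated cells (lower panel) on a shared log axis, 1 point per library with its 95% Poisson interval. C1s1 and C3 are higher in the upper panel in every library, and C1qa, C1qb, C1qc, C4b, Cfp and C3ar1 in the lower.

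In tumour-gated cells the protease gene C1s1 was at 352, 440, 318 and 336 CPM in the control, BTYNB, anti-PD-1 and combination libraries. The BTYNB library was the highest and anti-PD-1 the lowest. The order from low to high was anti-PD-1, combination, control and BTYNB, and each ratio between a treatment and its comparator had an interval clear of 0. C3, the central component, was at 144, 224, 164 and 169 CPM. Again the BTYNB library stood highest, 1.56-fold above control, while anti-PD-1 and combination differed from each other by a log2 ratio of 0.05 (0.01 to 0.08). C4b was at 7.24, 11.4, 6.87 and 10.1 CPM, so both libraries with BTYNB were above both without it. The intervals of control and anti-PD-1 overlapped (log2 ratio -0.07, -0.25 to 0.10), and combination was below BTYNB with an interval that reached 0 (-0.17, -0.33 to 0.00). C4b and its near copy C4a, and C1s1 and C1s2, can share reads, so the levels of these genes are uncertain in that respect.

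To set cells of equal depth side by side, each cell was thinned to 1000 UMIs. A C1s1 UMI was then found in 28.3, 33.8, 26.4 and 27.2% of tumour-gated cells and a C3 UMI in 13.3% (12.5 to 14.1), 19.5% (18.2 to 20.8), 14.6% (14.0 to 15.3) and 14.8% (13.8 to 15.9). The C3 share was thus highest in the BTYNB library, as its CPM was, and the other 3 libraries lay between 13.3 and 14.8%. Before thinning, 86.6, 84.4, 69.3 and 87.4% of tumour-gated cells held a C1s1 UMI and 56.6, 72.4, 49.4 and 67.5% a C3 UMI. In B-gated cells of no other gate, the thinned share for C1s1 was 3.58% in the BTYNB library (median 1886 UMIs before thinning) and 13.6% in the combination library (median 6573). These B-gated cells held the 6 tumour markers at 287 and 607 CPM, against 1173 and 1219 CPM in the tumour gate. Their shares are therefore no clean measure of a background.

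The region around the start of C3 is shown because C3 is the tumour-gate member that stood apart most clearly in the BTYNB library. RefSeq (GRCm38.p6, chr17:57228087-57228386, minus strand) gives 250 bases before and 50 bases after the start site. Capitals mark the NF-kB motif (GGGA and CC around 4 free bases), read on either strand.

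C3: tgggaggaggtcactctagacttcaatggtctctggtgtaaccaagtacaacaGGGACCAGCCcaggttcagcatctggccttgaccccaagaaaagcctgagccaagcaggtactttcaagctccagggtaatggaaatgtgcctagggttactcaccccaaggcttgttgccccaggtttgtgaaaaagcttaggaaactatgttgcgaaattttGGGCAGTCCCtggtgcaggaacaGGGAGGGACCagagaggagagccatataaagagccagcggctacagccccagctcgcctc

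The NF-kB motif began 197, 33 and 10 bases before the C3 start, and the C1s1 start held it too. It occurs in 20.7% of the 32851 mouse promoter windows of this length, so its presence is a description only. TTCNNNGAA (a gamma-activated sequence, found in 8.30% of all windows) and the core of the interferon-stimulated response element (3.44%) occurred on neither strand of the 7 windows found for 6 members. No window was found for C1qa, C4b or Cfb.

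Tumour-gated cells were not uniform in C3. The gate was divided by Upk3b and Aldh1a1, genes of mesothelial-type epithelium, at 5 UMIs together. Cells at or above 5 UMIs held 175, 231, 214 and 176 CPM of C3, whereas cells below held 79.5, 171, 72.7 and 123 CPM. The fold between both classes was 2.20 (2.10 to 2.31), 1.35 (1.27 to 1.43), 2.94 (2.81 to 3.08) and 1.43 (1.34 to 1.53), so the gap was wide in the libraries without BTYNB and narrow in those with it. C1s1 was higher in the same class by 1.13, 1.36, 1.74 and 1.33-fold and C4b by 1.51, 1.77, 1.93 and 1.66-fold, in 4 of 4 libraries each. Over the 13176 genes tested, 46.6 to 52.2% were higher in that class and 1.49 to 3.57% were at least 2-fold higher. C3 exceeded 90.5 to 99.2% of all genes in this difference.

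Depth differed between these classes: in the BTYNB library cells below 5 UMIs had a median of 3995 UMIs and those above 18163. Among cells with at least 5115 UMIs, the smallest cell of the combination library, C3 was at 173 and 76.9 CPM in cells above and below 5 UMIs of the control library, 231 and 162 CPM in BTYNB, 201 and 60.5 CPM in anti-PD-1, and 176 and 123 CPM in the combination. In the class below 5 UMIs, BTYNB exceeded control in C3 by a log2 ratio of 1.11 (1.0 to 1.22), against 0.40 (0.36 to 0.44) in the class above.

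Cells with at least 3 UMIs of Cd24a, a surface glycoprotein gene, made up 18.5% of the tumour gate in the anti-PD-1 library and 4.19, 4.10 and 3.41% in the control, BTYNB and combination libraries. In the anti-PD-1 library these cells held 54.3 CPM of C1s1 (51.1 to 57.7), 25.3 CPM of C3 (23.1 to 27.6) and 0.885 CPM of C4b (0.515 to 1.42). The other tumour-gated cells of that library held 398, 206 and 8.69 CPM. All 3 members were therefore low in the Cd24a class, although those cells were deeper (median 9323.5 against 6685 UMIs) and had more Krt18 (1104 against 556 CPM). Upk3b was also low in them, at 60.7 against 575 CPM.

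In the other libraries C1s1 was lower in Cd24a cells as well, at 223 against 360 CPM in control, 287 against 452 CPM in BTYNB and 190 against 344 CPM in the combination. C4b was lower there too, at 2.32 against 7.54, 3.37 against 12.1 and 2.09 against 10.6 CPM. C3 showed no such common direction: it was 166 against 143 CPM in control, 231 against 223 CPM in BTYNB and 133 against 171 CPM in the combination. Without the Cd24a cells, C3 in the anti-PD-1 library was 206 CPM against 143 CPM in control, and C1s1 was 398 against 360 CPM.

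**Figure D2:**
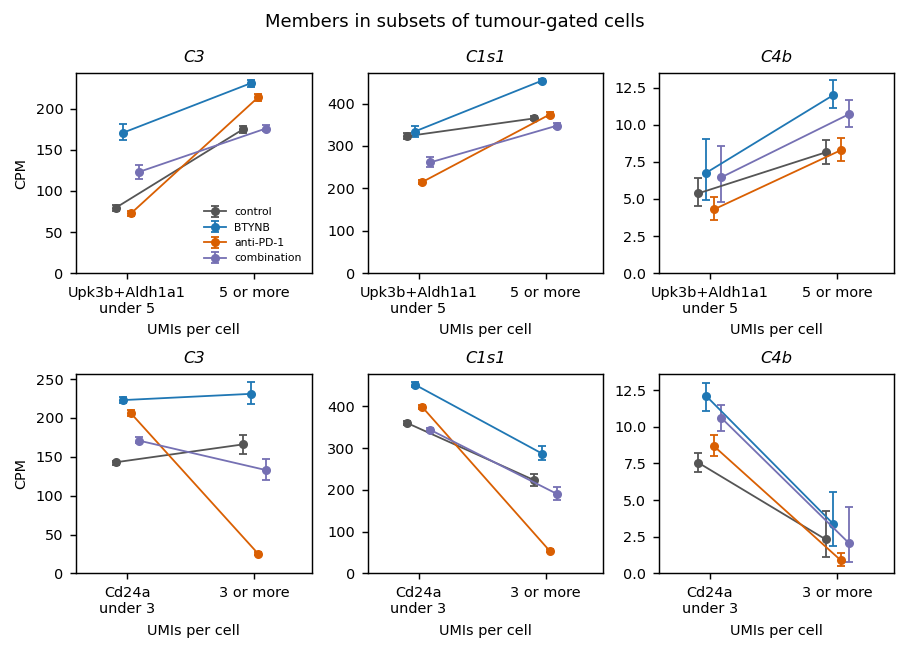
CPM of C3, C1s1 and C4b in subsets of tumour-gated cells, with 95% Poisson intervals and lines joining the subsets of 1 library. Upper row: cells with under 5 or at least 5 UMIs of Upk3b and Aldh1a1, where all 3 genes are higher at 5 or more. Lower row: cells with under 3 or at least 3 UMIs of Cd24a, where the anti-PD-1 library falls from 206 to 25.3 CPM in C3.

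The C1q chains were at a few CPM in tumour-gated cells. C1qa was at 1.95, 1.31, 4.56 and 6.25 CPM, C1qb at 3.56, 3.84, 10.1 and 12.3 CPM, and C1qc at 4.64, 4.27, 13.1 and 15.7 CPM. All 3 were higher in both libraries that received the blocking antibody than in both that did not. These levels were 0.169 to 0.830% of those in myeloid-gated cells. The leukocyte genes Tyrobp, Fcer1g, Laptm5, Ctss, Lyz2, Csf1r, Coro1a and Cd52 showed a median ratio of 0.364, 0.441, 0.598 and 0.892% between the same gates, rising over the libraries in the order in which the ratio of C1qc did (0.204, 0.317, 0.411 and 0.694%).

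C1q UMIs of the tumour gate were concentrated in few cells. Cells with at least 10 C1q UMIs numbered 18, 15, 71 and 41, which is 0.253, 0.416, 0.650 and 0.938% of the gate, and they held 52.4, 48.3, 52.7 and 61.8% of its C1q UMIs. In those cells Tyrobp, Fcer1g, Lyz2 and Csf1r summed to 4132, 2699, 4929 and 4471 CPM, against 12.5, 19.3, 20.3 and 29.1 CPM in tumour-gated cells with no C1q UMI, while the 4 keratins remained at 1188, 1433, 1816 and 1044 CPM. Such cells thus carried transcripts of both cell types. After thinning, 0.281, 0.474, 0.952 and 1.44% of tumour-gated cells held a C1qc UMI, against 0.377 and 5.30% of B-gated cells in the BTYNB and combination libraries. The B-gated cells held 39.0 and 134 CPM of the 6 macrophage markers, against 21.6 and 24.3 CPM in the tumour gate, and in the control and anti-PD-1 libraries they were too few to compare. The part of free RNA and of mixed cells in the C1q level of the tumour gate was not tested beyond the alternatives given below. Cfp (1.44 to 4.51 CPM) and C3ar1 (0.587 to 1.66 CPM) were likewise low, at 0.284 to 0.776% and 0.252 to 0.730% of the myeloid-gate level.

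**Figure D3:**
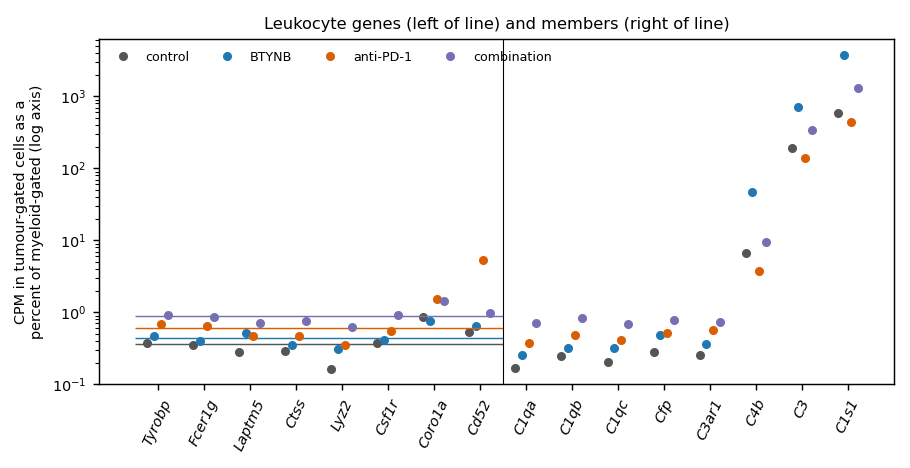
CPM in tumour-gated cells as a percent of CPM in myeloid-gated cells, 1 point per library on a log axis, for 8 leukocyte genes (left, with each library's median as a line) and 8 members (right). C1qa, C1qb, C1qc, Cfp and C3ar1 lie between 0.169 and 0.830%, C4b between 3.79 and 46.7%, and C3 and C1s1 above 100%.

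In myeloid-gated cells the C1q chains were abundant and differed between libraries. C1qa was at 1152, 512, 1203 and 873 CPM in the control, BTYNB, anti-PD-1 and combination libraries, C1qb at 1443, 1192, 2086 and 1479 CPM, and C1qc at 2278, 1347, 3194 and 2261 CPM. For each chain BTYNB was the lowest and anti-PD-1 the highest. Neighbours in the order that did not separate beyond counting error were control and anti-PD-1 for C1qa (log2 ratio 0.06, -0.03 to 0.15), and control and combination for C1qb and C1qc, whose intervals overlapped. The chains did not move by equal amounts: from control to BTYNB the log2 ratio was -1.17 for C1qa, -0.28 for C1qb and -0.76 for C1qc. Accordingly C1qa made up 23.6% (22.7 to 24.6), 16.8% (16.5 to 17.1), 18.6% (17.8 to 19.3) and 18.9% (18.6 to 19.3) of C1q UMIs, and C1qb 29.6, 39.1, 32.2 and 32.1%. The control library was the highest in the share of C1qa and the BTYNB library in that of C1qb.

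C1qb and C1qc lie side by side in the mouse genome, and the regions around their starts are shown because both chains were made mainly in the myeloid gate. Both are from RefSeq (GRCm38.p6, minus strand), at chr4:136886151-136886450 for C1qb and chr4:136892865-136893164 for C1qc. Capitals mark GAGGAA, a core of ETS-family sites, and the NF-kB motif, on either strand.

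C1qb: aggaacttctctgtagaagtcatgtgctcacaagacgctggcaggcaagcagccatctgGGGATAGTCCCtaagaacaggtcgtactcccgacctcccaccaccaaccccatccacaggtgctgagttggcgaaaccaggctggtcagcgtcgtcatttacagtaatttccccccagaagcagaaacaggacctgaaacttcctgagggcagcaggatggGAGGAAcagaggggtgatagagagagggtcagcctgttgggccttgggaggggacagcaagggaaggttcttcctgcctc

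C1qc: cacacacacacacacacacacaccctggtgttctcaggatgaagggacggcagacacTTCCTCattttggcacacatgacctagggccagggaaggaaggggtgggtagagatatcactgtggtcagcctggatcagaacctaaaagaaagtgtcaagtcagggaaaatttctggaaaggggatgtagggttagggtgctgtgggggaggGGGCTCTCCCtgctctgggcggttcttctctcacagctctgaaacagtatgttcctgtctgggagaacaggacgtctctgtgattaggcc

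GAGGAA began 30 bases before the C1qb start and 193 bases before the C1qc start, and it began 7 and 23 bases after that of Cfp. It occurs in 28.3% of all windows, and it was found in the windows of neither C3, C1s1 nor C3ar1.

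The myeloid gate did not hold the same cells in each library. Marker lists of at least 2 UMIs per cell placed 62, 155, 104 and 183 cells in a macrophage-only class (Adgre1, Fcgr1, Mertk and Mrc1), 27, 678, 50 and 89 in a monocyte-only class (Ly6c2, Ccr2, Plac8 and Chil3) and 185, 2166, 172 and 955 in a class that passed several lists. Over the whole gate the monocyte list summed to 1377, 3914, 902 and 1611 CPM with all 4 genes detected, and the neutrophil list to 409, 1887, 51.6 and 38.2 CPM, with Cxcr2 at 0 in the control library. The macrophage-only cells, which leave out cells passing any other list, were 21.2, 4.95, 27.1 and 14.5% of the gate. Over the whole gate the list of 6 macrophage markers summed to 1373, 1356, 1345 and 1282 CPM, so it did not fall with that share. The part of this makeup in the C1q levels was not tested, and the levels within each class are given instead.

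Within macrophage-only cells the summed level of each C1q chain lay closer together between libraries than in the whole gate. The cells of the BTYNB library were less uniform, however. Before thinning, 100, 76.8, 100 and 98.9% of macrophage-only cells held a C1qa UMI and 100, 84.5, 100 and 99.5% a C1qc UMI. C1qa was at 1662 CPM (1531 to 1800), 1501 (1420 to 1584), 1557 (1445 to 1677) and 1644 CPM (1577 to 1713). C1qb was at 2107, 2682, 2410 and 2356 CPM, and C1qc at 3536, 4053, 4140 and 4230 CPM. BTYNB against control was a log2 ratio of -0.15 (-0.29 to -0.01) for C1qa, 0.35 (0.23 to 0.47) for C1qb and 0.20 (0.10 to 0.29) for C1qc, so the lower level of the whole gate was not seen for C1qb and C1qc in this class. In monocyte-only cells, by contrast, C1qa was at 733, 250, 1074 and 797 CPM and C1qc at 1277, 749, 2456 and 2172 CPM, and BTYNB was again the lowest. C1qb was at 833 (697 to 987), 810 (773 to 848), 1659 and 1572 CPM there, so control and BTYNB were within counting error. Monocyte-only cells also held C3 at 244, 39.3, 191 and 135 CPM and C1s1 at 157, 15.8, 169 and 69.9 CPM. Their content of these tumour-gate members thus differed between libraries, and its part in the C1q values was not tested. The class that passed several lists, which held most of the gate in 3 libraries and 44.8% in anti-PD-1, gave 1027, 489, 1031 and 723 CPM of C1qa. All 3 chains were lower in BTYNB than in control there. The log2 ratio was -1.07 (-1.16 to -0.98) for C1qa, -0.20 (-0.28 to -0.13) for C1qb and -0.65 (-0.72 to -0.59) for C1qc.

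C4b in myeloid-gated cells was at 108, 24.4, 182 and 106 CPM. The BTYNB library was 0.225-fold of control, anti-PD-1 was 1.68-fold of control, and control and combination were within counting error of each other. In macrophage-only cells C4b was at 160, 113, 250 and 270 CPM. There the BTYNB library was still the lowest, but its log2 ratio to control was -0.51 (-0.99 to -0.02) in place of -2.15 (-2.41 to -1.89). In the class that passed several lists, 69.1% of the BTYNB gate, the ratio was -2.31 (-2.64 to -1.97), so it was small in the macrophage-only class alone of these 2. The combination exceeded BTYNB by 2.13 (1.96 to 2.30) in the whole gate and by 1.26 (0.94 to 1.60) in macrophage-only cells. After thinning, 8.56, 2.05, 13.3 and 7.95% of myeloid-gated cells held a C4b UMI, against 0.0314 and 0.758% of B-gated cells in the BTYNB and combination libraries.

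**Figure D4:**
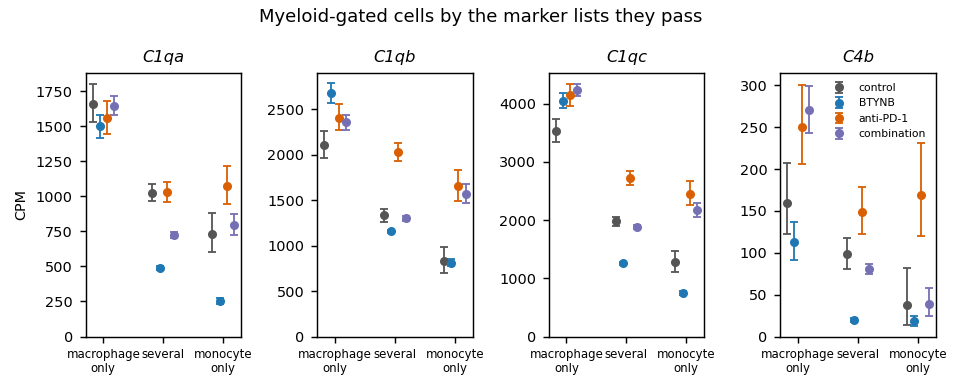
CPM of C1qa, C1qb, C1qc and C4b in myeloid-gated cells that pass the macrophage list alone, several lists, or the monocyte list alone, 1 point per library with its 95% Poisson interval. C1qa lies between 1501 and 1662 CPM in macrophage-only cells and between 250 and 1074 CPM in monocyte-only cells.

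Over the whole myeloid gate properdin and the C3a receptor varied less between libraries than the C1q chains. In macrophage-only cells this did not hold for properdin. Cfp was at 508, 405, 500 and 582 CPM in myeloid-gated cells, lowest in BTYNB and highest in the combination. In macrophage-only cells Cfp was at 511, 429, 506 and 743 CPM, and the combination exceeded BTYNB by a log2 ratio of 0.79 (0.62 to 0.97) there. C3ar1 was at 233, 207, 293 and 201 CPM over the gate and at 335, 328, 318 and 356 CPM in macrophage-only cells. The intervals of all 4 comparisons of C3ar1 in macrophage-only cells included 0.

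C1s1 and C3 were also counted in myeloid-gated cells, at 60.0, 11.7, 73.1 and 25.5 CPM and at 74.5, 31.2, 118 and 49.1 CPM. Both were lowest in BTYNB and highest in anti-PD-1. C1s1 stood at 17.0, 2.66, 23.0 and 7.59% of its tumour-gate level and C3 at 51.7, 13.9, 71.9 and 29.0%. The median of epithelial genes (Msln, Upk1b, Upk3b, Wt1, Cldn7, Lgals7 and Aldh1a1) stood at 8.54, 2.02, 13.9 and 5.64%, with the same order of libraries. Cldn7 was at 0% in control. It had no tumour-gate UMI in BTYNB, anti-PD-1 and combination, so the median there rests on the remaining genes. In the BTYNB library, thinned myeloid-gated cells held a C1s1 UMI in 1.64% and a C3 UMI in 3.05% (2.47 to 3.71) of cells, against 3.58% and 2.32% (1.83 to 2.91) of B-gated cells. In the combination library the shares were 3.26 and 3.74% against 13.6 and 8.33%. These B-gated cells held more tumour-cell RNA than the myeloid gate, with the 6 tumour markers at 287 and 607 CPM against 31.9 and 58.3 CPM, so their shares are no measure of the background in myeloid-gated cells. Both members were above the epithelial median in all 4 libraries, C3 by more than C1s1. The highest epithelial gene was Wt1, at 16.7, 6.66, 24.2 and 9.75%. C3 was above Wt1 in every library. C1s1 was below Wt1 in BTYNB, anti-PD-1 and combination and close to it in control, so it lay within or near the spread of the epithelial genes. The part of free tumour RNA in these levels was not otherwise tested.

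The comparisons of the design were set against all genes. A gene was tested when it had at least 100 UMIs in 1 library of the gate and was called at 2-fold on log2(CPM + 1), while the ratios printed here carry no pseudocount. Of the 9 members, 8 were tested in each gate, all but Cfb.

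For BTYNB against control, none of the 8 members was called in tumour-gated cells, where 0.941% of 13176 genes were called. Their median log2 ratio was 0.21 against 0.00 for all genes. C1s1 (0.32, 0.30 to 0.35), C3 (0.64, 0.60 to 0.67) and C4b (0.65, 0.49 to 0.82) were higher in the BTYNB library by less than 2-fold. In myeloid-gated cells 4 of 8 members were called, all lower in BTYNB, where 10.5% of 9310 genes were called, and the members' median was -0.96 against -0.02. They were C1s1 (-2.36, -2.71 to -2.0), C4b (-2.15, -2.41 to -1.89), C3 (-1.25, -1.54 to -0.96) and C1qa (-1.17, -1.24 to -1.10). Restricted to cells with macrophage markers (the macrophage list passed, with or without other lists), 2 members were called, C1s1 and C4b.

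For anti-PD-1 against control, C1qb (1.5, 1.30 to 1.71) and C1qc (1.5, 1.32 to 1.68) were called higher in tumour-gated cells, 2 of 8 members against 3.04% of genes. Neither was called once cells with UMIs of Lyz2, Csf1r, Cd79a or Cd79b were removed. Subtraction of the leukocyte background set both genes to 0 CPM in both libraries, because their ratios between gates lay below the leukocyte median. That alternative therefore cannot show whether they differ. C1s1 was at -0.15 over all tumour-gated cells and at 0.15 without the Cd24a cells, so its direction depended on them. In myeloid-gated cells 0 of 8 members were called, against 4.05% of genes. C4b (0.75, 0.48 to 1.02), C3 (0.66, 0.33 to 0.99) and C1qb (0.53, 0.46 to 0.61) had the largest ratios.

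For the combination against anti-PD-1, which adds BTYNB under PD-1 blockade, 0 of 8 members were called in tumour-gated cells, against 3.00% of genes. Cfp (0.82, 0.55 to 1.09), C4b (0.56, 0.39 to 0.73), C1qa (0.46, 0.24 to 0.67), C1qb (0.28, 0.13 to 0.43) and C1qc (0.26, 0.13 to 0.39) were above 0 with intervals clear of it. On log2(CPM + 1) the ratio of Cfp was 0.63. Subtraction of free RNA set Cfp and the 3 C1q chains to 0 CPM in both libraries, so it gives no estimate of their ratios. C3 was at 0.05, and at -0.27 without the Cd24a cells. In myeloid-gated cells C1s1 (-1.52, -1.84 to -1.20) and C3 (-1.26, -1.50 to -1.02) were called lower, 2 of 8 against 6.29% of genes, beside the lower epithelial background given above. The 3 C1q chains were at -0.46 to -0.50.

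For the combination against BTYNB, which adds PD-1 blockade to BTYNB, C1qa (2.25, 1.89 to 2.63), C1qc (1.88, 1.67 to 2.09) and C1qb (1.68, 1.46 to 1.90) were called higher in tumour-gated cells, 3 of 8 against 0.159% of genes. None was called in tumour-gated cells free of Lyz2, Csf1r, Cd79a and Cd79b UMIs. C3 (-0.41, -0.44 to -0.37) and C1s1 (-0.39, -0.42 to -0.36) were lower in the combination by less than 2-fold. In myeloid-gated cells C4b (2.13, 1.96 to 2.30) and C1s1 (1.12, 0.85 to 1.40) were called higher, 2 of 8 against 3.03% of genes. The call of C1s1 was lost after subtraction of the epithelial background, and that of C4b was not.

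**Figure D5:**
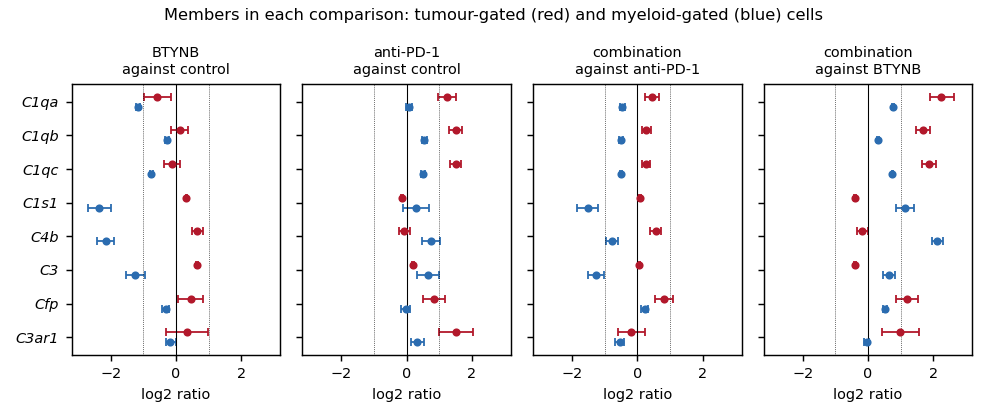
Log2 ratio of 8 members in the 4 comparisons, with exact 95% intervals for counting error, in tumour-gated (red, upper point of each pair) and myeloid-gated cells (blue, lower point). Dotted lines mark 2-fold. C3 and C4b lie right of 0 in tumour-gated and left of 0 in myeloid-gated cells for BTYNB against control.

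The list of complement genes held 46 others, of which 45 were in the files, 18 were tested in tumour-gated and 14 in myeloid-gated cells. In the tumour gate 0, 1, 0 and 0 of the 18 were at least 2-fold higher in the 4 comparisons in the order above, and 0 were 2-fold lower in each. Over all tested genes, 0.941, 3.04, 3.00 and 0.159% were called in either direction. The gene called was Itgb2, the shared chain of the complement receptors CR3 and CR4 and a leukocyte gene, at 9.43 CPM in control and 29.6 CPM in anti-PD-1. In the BTYNB comparison 15 of the 18 were above 0, with a median of 0.30 against 0.00 for all genes.

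Several regulators were higher in the tumour gate than in the myeloid gate. Clu, which encodes clusterin, a plasma inhibitor of the membrane attack complex, was at 851, 1128, 747 and 875 CPM in tumour-gated cells. It followed the library order of C1s1 at its ends, with BTYNB highest and anti-PD-1 lowest. Serping1, which encodes the C1 inhibitor that blocks C1r and C1s, was at 81.6, 108, 135 and 110 CPM and was highest in anti-PD-1. C1ra, the protease partner of C1s, was at 54.5, 63.8, 48.6 and 52.7 CPM, again highest in BTYNB, and Cd55, a membrane protein that speeds decay of the C3 enzymes, at 68.3, 67.1, 46.1 and 45.8 CPM. Cd55 was thus lower in both libraries that received the blocking antibody. Cr1l, a membrane regulator in rodents, was similar in both gates, at 63.8 to 73.6 CPM in tumour-gated and 102 to 117 CPM in myeloid-gated cells.

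In the myeloid gate 1, 2, 0 and 2 of the 14 other genes were at least 2-fold higher in the 4 comparisons and 3, 1, 3 and 1 at least 2-fold lower. Over all tested genes of this gate, 10.5, 4.05, 6.29 and 3.03% were called in either direction. Fcna, a ficolin of macrophages that starts the lectin pathway, was at 211, 40.5, 375 and 166 CPM. It was lowest in BTYNB and highest in anti-PD-1, as C4b was. Of those called in the anti-PD-1 comparison, Cd55 and Vsig4, a macrophage receptor for C3 fragments, were higher and the neutrophil ficolin Fcnb was lower. Named after their values were seen, Vsig4 was at 2.91, 2.3, 28.4 and 14.5 CPM and Fcnb at 2.91, 12.2, 0 and 0 CPM. In the control myeloid gate 1 UMI is 0.582 CPM, so both control levels rest on few UMIs. The 0 of Fcnb in anti-PD-1 allows up to 1.74 CPM (3 counts of the total). Counting intervals are not given for Vsig4 and Fcnb, so their calls are not read as differences between treatments. Among the other receptor genes, the C5a receptor C5ar1 was at 202, 237, 342 and 206 CPM, Itgam (CR3) at 1280, 813, 1387 and 1072 CPM, Itgb2 at 791, 509, 878 and 813 CPM, Itgax (CR4) at 54.1, 80.1, 37.1 and 60.2 CPM, and Cd93 at 67.5, 59.4, 44.1 and 35.0 CPM.

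Over 14 profiles (a library and gate of at least 50 cells, with the tumour gate whole and in its divisions), the genes most like summed C1q among 9152 were Lyz2 (Pearson's r of log2 values 0.999), Ccl6 (0.998), Sdc3, Wfdc17 and Ms4a8a (0.996 each). Lyz2 is itself a gate gene. Genes like C3 were Sez6l (0.961), Eln (0.958), Col6a1 (0.957) and Gtf2i (0.952), and C4b was most like Itsn1 (0.985), Fn1 (0.984), Hgsnat (0.982), Plod1 (0.977) and Ap2m1 (0.975). The profiles share libraries and nested cells, so these values describe a contrast between gates.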

How the data were processed

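Gene expression was measured by BD Rhapsody whole-transcriptome sequencing of single ascites cells, pooled over the mice of each treatment. The authors deposited UMI counts per gene and cell, made with the BD Rhapsody pipeline against GRCm39 according to the submitters' notes. Red cells were depleted, cells were frozen, and dead cells were removed before capture. The steps after the counts were run for this text: cells with under 200 genes or over 33% mitochondrial UMIs were removed, gates were set on UMIs of other genes, counts were summed per library and gate, and CPM was taken over all genes. No doublet caller was used, so cells that hold transcripts of both cell types remain in the gates, and an alternative removes the 5% of gated cells with the most UMIs per library.

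Each of the 4 groups is 1 library, so no test across samples could be made, and ratios carry exact 95% counting intervals (scipy 1.17.1). PCR and free RNA are not covered by them. Totals were 80499877, 114600397, 89236522 and 78603888 UMIs in the control, BTYNB, anti-PD-1 and combination libraries. Genes with at least 100 UMIs in 1 library of a gate were compared, and a ratio of 2-fold on log2(CPM + 1) counted as called. The calling step was tested on simulated data. The alternatives were the cell filter, a common floor of 5115 UMIs, the mean over cells, median-of-ratios scaling, stricter gates, removal of mixed or deepest cells, subtraction of free RNA, a lower count minimum of 20, and exclusion of Cd24a cells or restriction to cells with macrophage markers. The B gate without cells of the other gates was added after the data had been seen.

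Named were all members, other listed complement genes with at least 50 CPM in a library of either gate, the 5 genes most like summed C1q, C3 and C4b over profiles with at least 10 CPM on average, and the 3 members with the largest ratio in each gate. Some genes named by this rule are not reported here. Members, gene lists and tests were chosen with earlier results of these data known. Promoter windows came from RefSeq on GRCm38.p6 and were used without conversion.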

Additional observations from a re-analysis of the deposited data

Results flagged for a closer look

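C3 and C4b were flagged because BTYNB against control went opposite ways in the tumour and the myeloid gate by at least 1.5-fold each, with both counting intervals clear of 0. C3 had a log2 ratio of 0.64 in tumour-gated and -1.25 in myeloid-gated cells, a difference of 1.89. C4b had 0.65 and -2.15, a difference of 2.80. With 1 library per treatment the difference between gates was not tested over samples. Beside them, the epithelial background of the myeloid gate was 8.54% in control and 2.02% in BTYNB. In macrophage-only cells the ratios were -0.51 (-1.24 to 0.25) for C3 and -0.51 (-0.99 to -0.02) for C4b. In cells that passed several lists they were -0.76 (-1.18 to -0.31) and -2.31 (-2.64 to -1.97). The part of this background and of the cell classes in the flagged values was not tested.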

How the results depend on the processing

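No paired analysis was possible because each treatment has 1 library and the labels give no replicate numbers. The 2 tumour calls for anti-PD-1 against control and the 3 for the combination against BTYNB became 0 without UMIs of other cell types. They also became 0 with free RNA subtracted, which set all 3 C1q chains to 0 CPM in the tumour gate of every library. That alternative could therefore give no call of them. The calls held under the other alternatives. In the myeloid gate, the 4 calls for BTYNB against control became 2 in cells with macrophage markers. The 0 for anti-PD-1 against control became 2 (C1s1 and C3, both higher) at the common UMI floor, which 82.6% of anti-PD-1 myeloid-gated cells did not reach. The 2 calls for the combination against BTYNB became 1 (C4b) for the mean over cells, without UMIs of other cell types, without the deepest cells, with free RNA subtracted and with macrophage markers. The other 3 counts stayed within 1.5 times. Why these counts moved was not tested. No called member changed sign. Over 8 members and 4 comparisons, 253 of 288 alternative ratios kept their sign in the tumour gate and 279 of 288 in the myeloid gate. Ratios that the subtraction set to 0 are counted among those that did not. The background share moved too. At the common floor it was 12.1% for anti-PD-1 against control and 15.6% for the combination against anti-PD-1 in the myeloid gate. Without Cd24a cells it was 1.56 and 1.29% for these comparisons in the tumour gate. Anti-PD-1 myeloid levels rest on 384 cells, and Cfb could not be compared at this depth.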

Other observations

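Cfp UMIs were also found outside the 3 gates, where 9.91, 27.9, 13.0 and 18.4% of them lay in the control, BTYNB, anti-PD-1 and combination libraries. In the BTYNB library, ungated cells that passed several marker lists held 148 CPM of Cfp (141 to 155), those of the monocyte list alone 133 CPM (123 to 143), those of the neutrophil list alone 110 CPM (88.6 to 136) and those of the dendritic list alone 60.0 CPM (49.8 to 71.6). Ungated T cell-list cells of that library held 6.48 CPM (4.20 to 9.57). The ungated cells of the monocyte list alone also held 236 CPM of C1s1 and 117 CPM of C3 in the BTYNB library. The monocyte list summed to 124 CPM in the tumour gate of that library, so it does not mark monocytes alone among ungated cells. The lists are those of the markers named above with dendritic genes Flt3, Xcr1, Clec9a, Cd209a and Ccr7, neutrophil genes S100a8, S100a9, Retnlg, Cxcr2 and Csf3r, and T cell genes Cd3e, Cd3d, Cd3g, Trac and Cd2. B-gated cells of no other gate held 25.2 CPM of Cfp (22.0 to 28.8) in the BTYNB library and 55.1 CPM (42.4 to 70.3) in the combination.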
